A study of Anolis sagrei with 15 samples.

Results

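SOX2, PAX6, RAX, SIX3, SIX6 and LHX2 are transcription factors that mark the progenitors of the vertebrate retina, and their RNA was measured here in 3 regions of the posterior globe of brown anole (*Anolis sagrei*) embryos. The members were chosen by gene symbol in the deposited count table, and every gene model of a repeated symbol was kept, which gave 10 of the 20235 gene models in the table. SOX2 and RAX had a single gene model each, and PAX6, SIX3, SIX6 and LHX2 had a pair each. All 10 were among the 15910 gene models that passed the filter on low counts. The libraries came from the central, temporal and nasal regions, with 5 replicates of each, taken from embryos of mixed sex at Sanger stage 16.5. The parents were wild-caught, no treatment or mutation was applied to any group, and each sample was tissue pooled from several embryos, so that a value is not that of a single animal. The labels do not say what a replicate number shares, and the p-values measure the spread between these samples.

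SOX2 is an HMG-box factor that keeps neural progenitors undifferentiated and competent to form neurons. PAX6 carries a paired domain and a homeodomain and is required for eye formation from insects to mammals, and RAX, SIX3, SIX6 and LHX2 are homeodomain proteins of the eye-field network, in which LHX2 belongs to the LIM class and SIX3 and SIX6 act with EYA coactivators or with TLE corepressors. In mouse and other vertebrates the expression of these factors narrows as retinal cells differentiate. In the mature mouse retina SOX2 stays in Müller glia and some amacrine cells, PAX6 in ganglion, amacrine and horizontal cells, SIX3 and SIX6 in inner retinal neurons, and LHX2 and RAX in Müller glia. Fewer cells of a type and less RNA per cell cannot be told apart in libraries of bulk tissue such as these.

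Counted reads ranged over 15712525 to 27035312 in central libraries, 15177438 to 24688374 in temporal libraries and 18365334 to 25166494 in nasal libraries, and the members had 17 to 12936 reads in a library. Levels are given as counts per 1000000 (CPM) with library sizes scaled by TMM, whose factors lay between 0.975 and 1.02. They are not corrected for gene length, so they compare a gene model between libraries and not different gene models. Central replicate 4 stood apart, with reads in 14994 gene models against 17491 to 18617 in the other libraries. Results without it are given where it moved a call. The labelled tissue showed its defining retinal genes: the summed level of 18 gene models of photoreceptor markers was 12315 to 14454 CPM in central, 8774 to 12671 CPM in temporal and 7404 to 9820 CPM in nasal libraries. The largest part was RCVRN, which averaged 7038 CPM in central, 6288 CPM in temporal and 4985 CPM in nasal libraries.

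**Figure D1:**
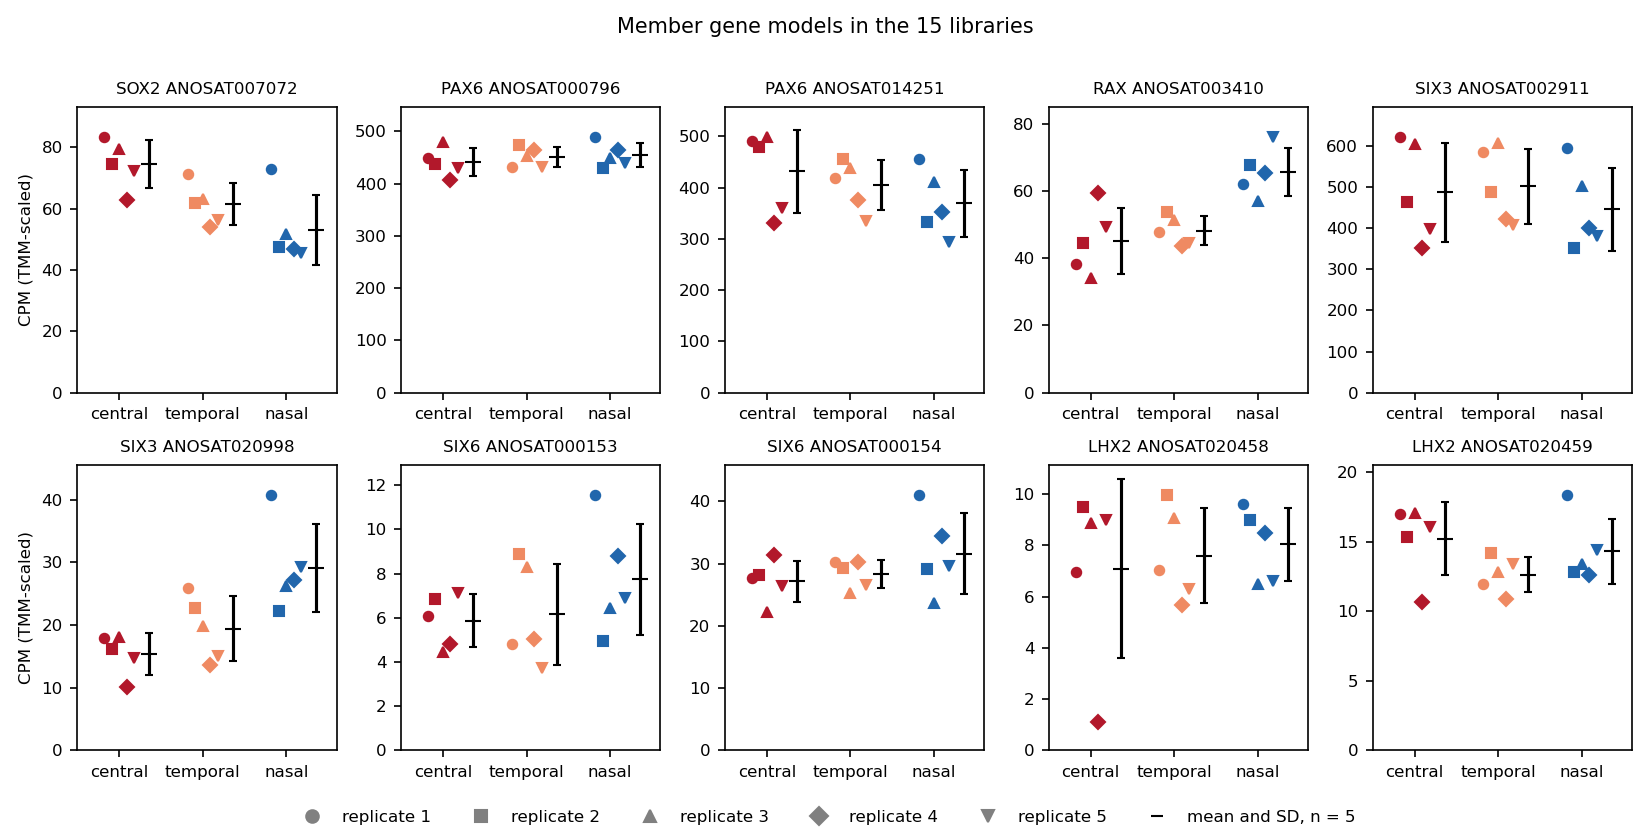
Level of each member gene model (vertical axis, TMM-scaled CPM, from 0) in each of the 5 central, 5 temporal and 5 nasal libraries (horizontal axis). Marker shapes give the replicate number and bars the mean and SD (n = 5). SOX2 averaged 74.5 CPM in central and 52.9 CPM in nasal libraries, while RAX and SIX3 ANOSAT020998 were highest in the nasal libraries.

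In the comparison of central with nasal, 3 of the 10 member gene models passed the threshold (edgeR's quasi-likelihood test, Benjamini-Hochberg adjusted p under 0.05 over all 15910 gene models): SOX2 was higher in central, and RAX and the second gene model of SIX3 were lower. Of all gene models tested, 18.4% passed in this comparison, 10.4% higher and 7.94% lower in central. The median log2 fold change was -0.11 over the members and -0.03 over all gene models tested. The libraries of central and nasal did not overlap for 1 member, SIX3 ANOSAT020998, where 13.3% of all gene models did not overlap.

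No member passed in temporal against nasal, where 6.59% of all gene models passed (4.4% higher, 2.19% lower). By an unadjusted p under 0.05 in edgeR, 2 members would be counted, and DESeq2 called 1 and limma-voom 2. With the replicate number as a block in edgeR, 2 members passed, RAX and SIX3 ANOSAT020998, both lower in temporal, and 13.9% of all gene models passed. RAX was the 1 member whose temporal and nasal libraries did not overlap, beside 9.13% of all gene models.

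No member passed in central against temporal either, where 6.78% of all gene models passed (3.53% higher, 3.24% lower). By an unadjusted p under 0.05 in edgeR, 1 member would be counted, DESeq2 called 0 and limma-voom 1. With the replicate block 1 member passed, SOX2, higher in central, and 12.7% of all gene models did. No member had libraries that did not overlap between central and temporal (0 of 10, beside 7.29% of all gene models). In central against nasal the block left 3 members past the threshold while 27.9% of all gene models passed. The 3 comparisons share libraries, so their values are set side by side and not taken as separate evidence.

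**Figure D2:**
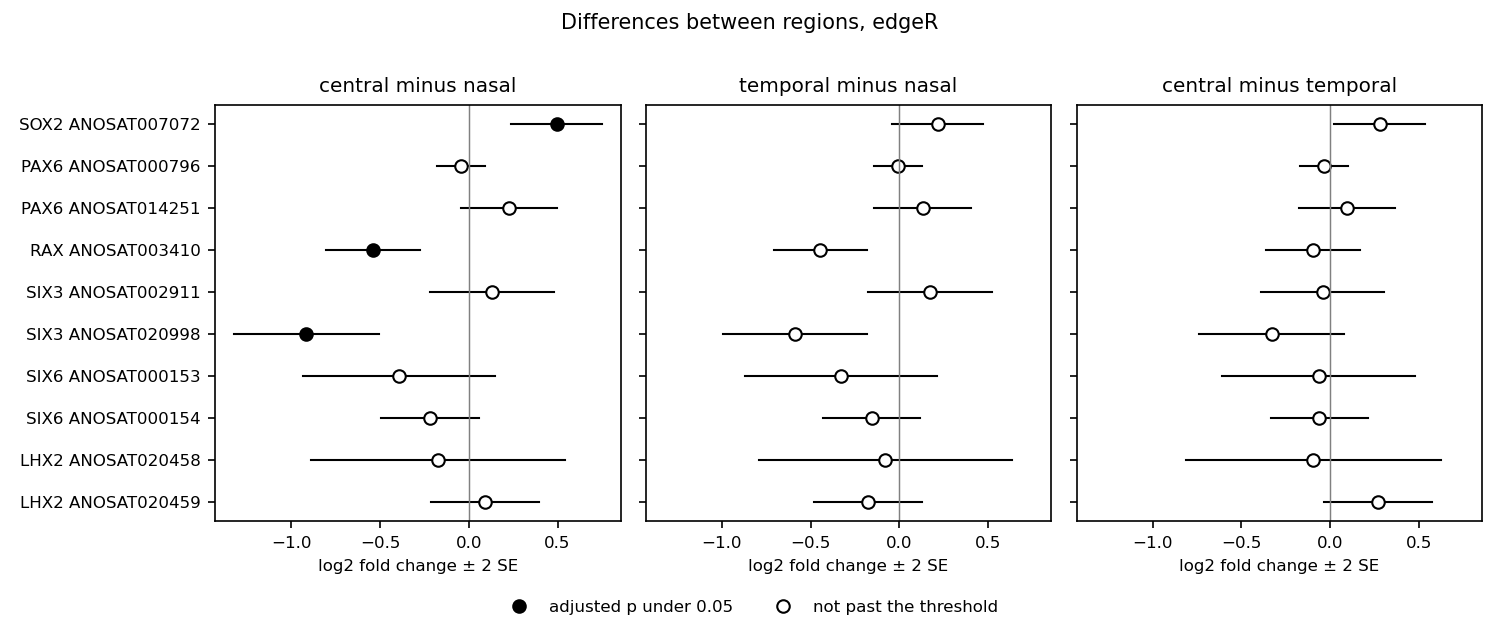
Log2 fold change (horizontal axis, with bars of 2 SE on each side) of each member gene model in central minus nasal, temporal minus nasal and central minus temporal, from the edgeR fit of all 15 libraries. Filled points passed the adjusted threshold: SOX2 at 0.49, RAX at -0.54 and SIX3 ANOSAT020998 at -0.92, all in central minus nasal.

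SOX2, the progenitor factor that is also kept by Müller glia in mouse, was higher in central than in nasal libraries. The SOX2 gene model (ANOSAT007072) had 83.3, 74.5, 79.6, 62.8 and 72.4 CPM in central replicates 1 to 5, 71.5, 62.0, 63.3, 54.0 and 56.3 CPM in temporal replicates 1 to 5, and 72.9, 47.6, 51.6, 47.0 and 45.4 CPM in nasal replicates 1 to 5. Apart from nasal replicate 1, which lay inside the central range, every nasal library was below every central library. The order of the means was central (74.5 ± 7.82 CPM), temporal (61.4 ± 6.81 CPM) and nasal (52.9 ± 11.4 CPM; SD, n = 5 each). SOX2 was 1.41-fold higher in central than in nasal, a log2 fold change of 0.49 with an SE of 0.129 (edgeR adjusted p = 0.0110), and it was higher in central in 5 of 5 replicate pairs. This call held in 23 of 23 alternatives, with log2 fold changes of 0.44 to 0.66. In central minus temporal SOX2 had a log2 fold change of 0.28, with an interval of 2 SE from 0.02 to 0.54, and was higher in central in 5 of 5 pairs. This difference missed the threshold over all gene models (edgeR adjusted p = 0.264) and passed it with the replicate block (edgeR adjusted p = 0.0290) and in limma-voom (adjusted p = 0.0394). In temporal minus nasal the log2 fold change was 0.21 (edgeR adjusted p = 0.438). Without nasal replicate 1, the temporal minus nasal value was 0.36 and passed (edgeR adjusted p = 0.0445).

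RAX, the eye-field homeobox gene without which no eye forms in mouse, went the other way and was lowest in central libraries. The RAX gene model (ANOSAT003410) had 38.3, 44.6, 34.1, 59.6 and 49.2 CPM in central replicates 1 to 5, 47.9, 53.9, 51.4, 43.7 and 44.4 CPM in temporal replicates 1 to 5, and 62.1, 67.8, 57.1, 65.4 and 76.1 CPM in nasal replicates 1 to 5. All temporal libraries were below all nasal libraries, and of the central libraries only replicate 4 reached into the nasal range. The means were 45.1 ± 9.93 CPM in central, 48.3 ± 4.39 CPM in temporal and 65.7 ± 7.05 CPM in nasal (SD, n = 5 each). In central minus nasal the log2 fold change of RAX was -0.54 with an SE of 0.132 (1.46-fold lower in central, edgeR adjusted p = 0.00712), with a lower central value in 5 of 5 pairs, and this call held in 23 of 23 alternatives (-0.71 to -0.45). In temporal minus nasal it was -0.45 with an SE of 0.132, just outside the threshold (edgeR adjusted p = 0.0516), and lower in temporal in 5 of 5 pairs. That comparison passed with the replicate block (edgeR adjusted p = 0.0228), and also without central replicate 4 (0.0153) or central replicate 3 (0.0290). Central and temporal, neighbours in the order of RAX levels, differed by -0.10 (edgeR adjusted p = 0.798).

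SIX3 is a homeodomain factor of the anterior neural plate that represses Wnt signalling there in mouse, and its symbol stood on 2 gene models that did not behave alike. The first, ANOSAT002911, lies between CAMKMT and SIX2 in the order of the table, and had 622, 464, 605, 352 and 400 CPM in central replicates 1 to 5, 587, 488, 608, 423 and 407 CPM in temporal replicates 1 to 5, and 595, 352, 503, 401 and 380 CPM in nasal replicates 1 to 5. The regions overlapped throughout, and replicates 1 and 3 were the highest pair in each region. Its log2 fold changes were 0.13 in central minus nasal (edgeR adjusted p = 0.680), 0.17 in temporal minus nasal (0.715) and -0.04 in central minus temporal (0.951). The interval of 2 SE in central minus nasal, -0.22 to 0.48, leaves room for a difference in either direction.

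The second SIX3 gene model, ANOSAT020998, had the largest difference of the 10 members. It lies between ADAMTS4 and TMEM151A in the table, away from SIX2, and the RefSeq annotation of the species has a single gene named SIX3. Whether ANOSAT020998 is a further copy of SIX3 or a related gene that took its name was not tested. It had 18.0, 16.1, 18.1, 10.1 and 14.7 CPM in central replicates 1 to 5, 25.8, 22.8, 19.8, 13.6 and 15 CPM in temporal replicates 1 to 5, and 40.7, 22.2, 26.3, 27.2 and 29.2 CPM in nasal replicates 1 to 5. All central libraries were below all nasal libraries, and temporal libraries lay between and overlapped both. In central minus nasal the log2 fold change was -0.92 with an SE of 0.204 (1.89-fold lower in central, edgeR adjusted p = 0.00355, lower in 5 of 5 pairs), and the call held in 23 of 23 alternatives (-1.001 to -0.64). In temporal minus nasal it was -0.59 (edgeR adjusted p = 0.101, lower in temporal in 4 of 5 pairs), which passed with the replicate block (0.0115) and without central replicate 4 (0.0486). Central and temporal differed by -0.33 (edgeR adjusted p = 0.463), with the central library lower in 5 of 5 pairs.

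Reads that match both copies of a symbol could be split between them by the counting. As a description of a pair, the reads of the first gene model were divided by those of the second within each library, a measure chosen after the values were seen. For SIX3 the ratio of ANOSAT002911 to ANOSAT020998 was 27.2 to 35.0 in central (median 33.4), 21.4 to 31.1 in temporal (median 27.2) and 13.0 to 19.1 in nasal libraries (median 14.7). The nasal libraries stood below all the others. The mean log2 ratio was 1.04 higher in central than in nasal and 0.78 higher in temporal than in nasal, each with p = 0.00794 in an exact two-sided permutation test over libraries, the smallest value that 252 splits allow, and an adjusted p of 0.0476 over 12 tests. Central and temporal differed by 0.26 in the same exact permutation test (p = 0.0873, adjusted p = 0.262), and the ratio was higher in central in 5 of 5 pairs. These tests did not use the pairing of replicate numbers, and since the ratio restates the fold changes of the 2 gene models it is no separate evidence, nor does it show whether reads were split between copies.

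**Figure D3:**
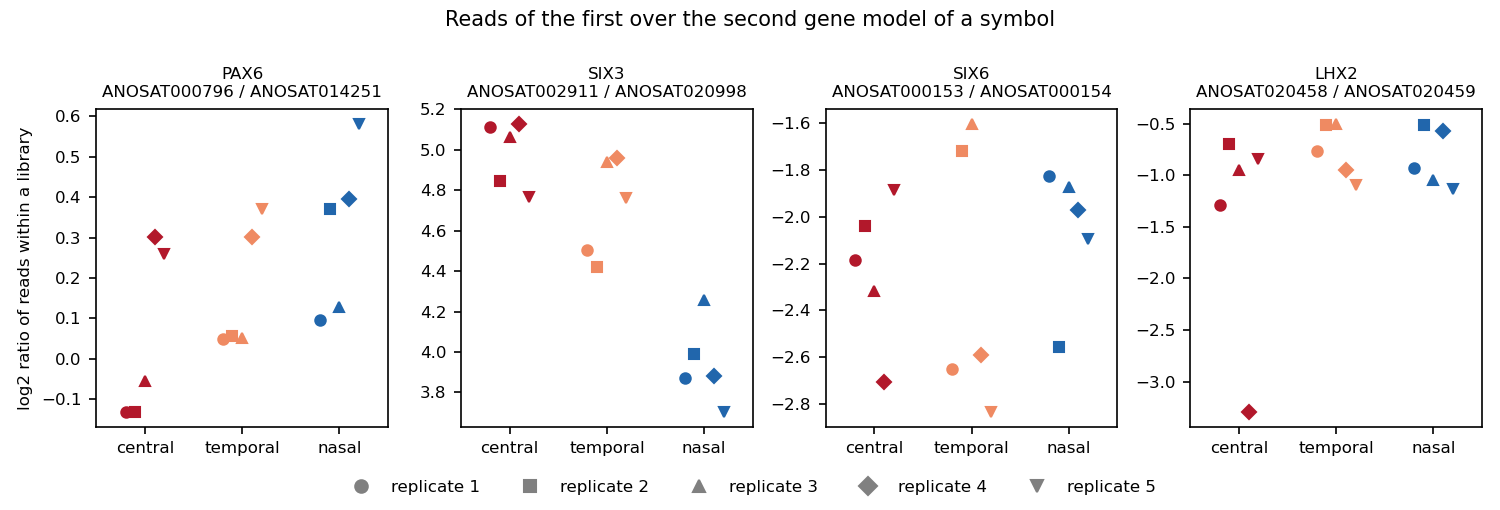
Log2 ratio of the reads of the first to the second gene model of a symbol within a library (vertical axis) for PAX6, SIX3, SIX6 and LHX2, by region (horizontal axis), with marker shapes for replicate numbers. For SIX3 every nasal library lies below every central and temporal library, and for LHX2 central replicate 4 lies far below the rest.

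PAX6, which directs progenitors towards several neuronal fates in the mouse retina, had a pair of gene models with high counts, and neither passed the threshold in any comparison in edgeR. ANOSAT000796, between elp4 and RCN1 in the table, had 448, 438, 480, 407 and 431 CPM in central replicates 1 to 5, 433, 474, 454, 464 and 433 CPM in temporal replicates 1 to 5, and 489, 430, 449, 464 and 440 CPM in nasal replicates 1 to 5. It was the steadiest member, with a coefficient of variation as low as 4.12% among temporal libraries. Its log2 fold change in central minus nasal was -0.04, with an interval of 2 SE from -0.18 to 0.09 (edgeR adjusted p = 0.732), which bounds a difference between these regions more tightly than for any other member. It was -0.01 in temporal minus nasal (edgeR adjusted p = 0.972) and -0.03 in central minus temporal (0.867).

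The other PAX6 gene model, ANOSAT014251, lies between ADM and RCN3, and RefSeq has a single gene named PAX6. Whether ANOSAT014251 is a copy of PAX6 or a related gene was not tested either. It had 491, 480, 498, 330 and 360 CPM in central replicates 1 to 5, 418, 456, 438, 376 and 335 CPM in temporal replicates 1 to 5, and 457, 333, 410, 353 and 294 CPM in nasal replicates 1 to 5. Libraries with the replicate numbers 4 and 5 were low in central and temporal alike, and the regions overlapped. The log2 fold change was 0.23 in central minus nasal (edgeR adjusted p = 0.291), higher in central in 4 of 5 pairs, and 0.13 in temporal minus nasal and 0.09 in central minus temporal. The ratio of ANOSAT000796 to ANOSAT014251 was 0.912 to 1.23 in central, 1.03 to 1.29 in temporal and 1.07 to 1.497 in nasal libraries. It was lower in central than in nasal in 5 of 5 pairs and lower in temporal than in nasal in 5 of 5 pairs. The log2 difference of -0.27 in central minus nasal was not past the threshold in the exact permutation test, which did not use the pairs (p = 0.0873, adjusted p = 0.262).

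SIX6, the close relative of SIX3 that sustains progenitor proliferation in the mouse retina and pituitary, had a pair of gene models that follow each other in the table. RefSeq has a single gene named SIX6, and whether the pair are separate genes was not tested. ANOSAT000153 had 6.07, 6.87, 4.44, 4.81 and 7.13 CPM in central replicates 1 to 5, 4.81, 8.88, 8.31, 5.03 and 3.72 CPM in temporal replicates 1 to 5, and 11.5, 4.97, 6.45, 8.79 and 6.91 CPM in nasal replicates 1 to 5. ANOSAT000154 had 27.6, 28.2, 22.1, 31.4 and 26.3 CPM in central replicates 1 to 5, 30.2, 29.2, 25.3, 30.3 and 26.5 CPM in temporal replicates 1 to 5, and 41.0, 29.2, 23.7, 34.5 and 29.6 CPM in nasal replicates 1 to 5. The regions overlapped for both. In central minus nasal the log2 fold changes were -0.39 for ANOSAT000153 (edgeR adjusted p = 0.364) and -0.22 for ANOSAT000154 (0.313), with ANOSAT000154 lower in central in 5 of 5 pairs. In temporal minus nasal they were -0.33 and -0.16, and in central minus temporal -0.07 and -0.06, for ANOSAT000153 and ANOSAT000154 in that order. The intervals of 2 SE in central minus nasal were -0.94 to 0.15 for ANOSAT000153 and -0.49 to 0.06 for ANOSAT000154.

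LHX2, a LIM-homeodomain factor that in mouse is needed for the optic vesicle to become a cup and later for Müller glia, also had adjacent gene models, between DENND1A and NEK6. RefSeq has a single gene named LHX2, and whether these are separate genes was not tested either. ANOSAT020458 had 6.96, 9.50, 8.88, 1.09 and 8.99 CPM in central replicates 1 to 5, 7.05, 9.95, 9.06, 5.66 and 6.28 CPM in temporal replicates 1 to 5, and 9.61, 8.98, 6.50, 8.48 and 6.59 CPM in nasal replicates 1 to 5. The 1.09 CPM in central replicate 4 rest on 17 reads, the fewest of any member in any library. ANOSAT020459 had 17.0, 15.4, 17.1, 10.7 and 16.1 CPM in central replicates 1 to 5, 12.0, 14.2, 12.8, 10.9 and 13.4 CPM in temporal replicates 1 to 5, and 18.4, 12.8, 13.4, 12.6 and 14.4 CPM in nasal replicates 1 to 5. The regions overlapped for both gene models of LHX2, and central replicate 4 was the lowest library for both. Neither passed in any comparison, with log2 fold changes in central minus nasal of -0.17 for ANOSAT020458 (edgeR adjusted p = 0.802) and 0.09 for ANOSAT020459 (0.749). Without central replicate 4 the value of ANOSAT020458 was 0.10, and with the reads of both gene models summed it was 0.00092.

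The members differed in what their variation followed. The variance of log2 CPM over the 15 libraries was divided into a share by region, a share by replicate number and the rest, as a description of these libraries. Region took 61.2% for RAX, 58.9% for SIX3 ANOSAT020998 and 56.1% for SOX2, the 3 members that passed in central minus nasal. Replicate number took 82.6% for SIX3 ANOSAT002911, 64.4% for PAX6 ANOSAT014251 and 63.9% for SIX6 ANOSAT000154, whose libraries of the same number were high or low together in the 3 regions. For PAX6 ANOSAT000796 and SIX6 ANOSAT000153 most of the variance followed neither, with 73.7% and 78.6% left over.

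Among the 45 pairs of member gene models, 33 had a positive and 12 a negative Pearson correlation of log2 CPM over the 15 libraries, from -0.717 to 0.860 with a median of 0.387. These libraries share regions and replicate numbers, so the correlations describe the table and are not tests. The highest was between PAX6 ANOSAT014251 and SIX3 ANOSAT002911 (0.860, and 0.845 without central replicate 4), the members with the largest shares by replicate number. The lowest was between SOX2 and RAX (-0.717, and -0.732 without central replicate 4), which were higher and lower in central.

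For each member, the 3 other gene models most like it were taken by the same correlation over 15 libraries among those past the filter. SOX2 was most like C2H6ORF47 (0.946), CPLX3 (0.945) and CTSZ (0.944). RAX was most like PXDC1 (0.934), TRIM36 (0.931) and PPP1R16A (0.930), and SIX3 ANOSAT020998 was most like DSCAML1 (0.953), SMARCC1 (0.944) and PA2G4 (0.941). SIX3 ANOSAT002911 was most like aff2 (0.971), LOC112156271 (0.962) and YTHDF3 (0.956). These values moved by little without central replicate 4. By Spearman's rank correlation aff2, LOC112156271 and YTHDF3 ranked 19, 26 and 7 for SIX3 ANOSAT002911. C2H6ORF47, CPLX3 and CTSZ then ranked 10, 1 and 6 for SOX2. PAX6 ANOSAT014251 was most like MAGI1 (0.966), DST (0.962) and HPCA (0.961), which ranked 26, 16 and 3 by Spearman's correlation. PAX6 ANOSAT000796 was most like SHB (0.902), PTK2 (0.897) and MNT (0.882). SIX6 ANOSAT000153 was most like usp48 (0.852), SSR2 (0.804) and CRTC2 (0.797). SIX6 ANOSAT000154 was most like NUP93 (0.868), GPKOW (0.853) and PHF8 (0.851). By Spearman's rank correlation NUP93, GPKOW and PHF8 were less close to it, at 0.707, 0.761 and 0.714. Their ranks among gene models past the filter were then 83, 29 and 79. LHX2 ANOSAT020459 was most like ZNF397 (0.866), GRID2IP (0.866) and XIAP (0.852). By Spearman's correlation these stood at 0.754 (rank 41), 0.839 (rank 6) and 0.829 (rank 9). LHX2 ANOSAT020458 was most like POU4F3 (0.975, and 0.872 without central replicate 4, the highest value in both cases). Its likeness to SNX27 and NTF4 rested on that library, at 0.652 and 0.685 without central replicate 4 against 0.964 and 0.962 with it.

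The nearest annotated protein-coding genes beside the members in RefSeq were read in the same fit. RCN1, which encodes a calcium-binding protein of the endoplasmic reticulum and lies beside PAX6, averaged 9.82 ± 3.08 CPM in central, 5.11 ± 0.709 CPM in temporal and 4.34 ± 1.23 CPM in nasal libraries (SD, n = 5 each). It was higher in central than in nasal (log2 fold change 1.18, edgeR adjusted p = 0.00201) and than in temporal (0.94, edgeR adjusted p = 0.0234), while PAX6 ANOSAT000796 next to it was not past the threshold. CPLX4, a complexin of retinal ribbon synapses that lies beside RAX, was lower in central than in nasal (-0.38, edgeR adjusted p = 0.0143), in the same direction as RAX. The neighbours of SOX2 (DNAJC19 and ATP11B), of LHX2 (NEK6 and DENND1A) and of SIX3 (SIX2 and CAMKMT), with ELP4 beside PAX6 and GRP beside RAX, were not past the threshold in any comparison, and the neighbours of SIX6 were not matched by symbol. No source used here says whether the counting used strand, so reads of overlapping genes cannot be told apart.

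Other genes of the eye-field and optic-cup network that passed the test against nasal were all lower than in nasal. Not all of them passed in both central and temporal. Of 14 gene models tested on a list of such factors, 7 were lower and 0 higher in central than in nasal, with a median log2 fold change of -0.44 against -0.03 over all gene models. This count and those of the lists below stand beside 18.4% of all gene models called in central against nasal. The share was 6.59% in temporal against nasal and 6.78% in central against temporal. With the replicate block the shares were 27.9%, 13.9% and 12.7% in the same order. Both gene models of OTX2, a homeobox gene of photoreceptors, bipolar cells and pigment epithelium, were lower in central than in nasal (-0.62 and -0.54), as were OTX1 (-1.45) and MAB21L1 (-0.84). In temporal against nasal 4 were lower and 0 higher, the OTX2 pair among them (-0.43 and -0.41). OTX1 (-1.04, edgeR adjusted p = 0.186) and MAB21L1 (-0.37, edgeR adjusted p = 0.314) did not pass there.

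ZIC2, a zinc-finger gene of ventrotemporal ganglion cells and ciliary margin in mouse, was lower in central than in nasal (-4.52) and than in temporal (-4.48), with 15 reads over the central, 365 over the temporal and 371 over the nasal libraries. In temporal minus nasal ZIC2 stood at -0.03 (edgeR adjusted p = 0.987).

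Cofactors of the members passed in both directions. Of 20 cofactor gene models tested, 1 was higher and 3 were lower in central than in nasal, and 7 in all passed with the replicate block. Among all gene models, 18.4% passed in this comparison, and 27.9% with the block. Here TLE1 ANOSAT016504, a Groucho-type corepressor that binds SIX3 and SIX6 in vertebrates, was at -0.80. TLE3 was at -0.28 and LMO4, a LIM-only protein, at -0.55. The higher gene was LMO3, at 1.61 (edgeR adjusted p = 0.0369), with only 364 reads over all 15 libraries. It averaged 1.86 CPM in central and 0.603 CPM in nasal, and these libraries overlapped. TLE1 ANOSAT016504 and LMO4 were also lower in temporal than in nasal (-0.46 and -0.36), as was CITED2 ANOSAT015992 (-0.56). The other CITED2 gene model, ANOSAT002424, went the other way without passing, at 0.21 in central minus nasal (edgeR adjusted p = 0.0822). It stood at 0.21 in temporal minus nasal too (edgeR adjusted p = 0.143). TLE1 ANOSAT003831 was not past the threshold in either comparison (-0.17 and -0.20). In central against temporal edgeR called 0 of 20 (5 at an unadjusted p under 0.05), against 2 with the block, 2 with DESeq2 and 0 with limma-voom.

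Among 11 paralog gene models tested, LHX1, LHX3, LHX4 and LHX9, LIM-homeodomain genes of retinal neurons, were lower in central than in nasal by values of -0.88 to -0.67 and lower in temporal than in nasal by values of -0.62 to -0.54. RAX2, the second retinal homeobox gene, was lower in central than in nasal (-0.49, edgeR adjusted p = 0.0451), in the direction of RAX, and stood at -0.02 in temporal minus nasal. PAX2, a paired-box gene of the optic stalk and of optic nerve head astrocytes, had 2859 reads over the central, 46 over the temporal and 19 over the nasal libraries, and was higher in central than in nasal (7.29) and than in temporal (6.01).

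Progenitor maintenance genes did not move as a block. Of 17 tested, 2 were higher and 4 lower in central than in nasal, with a median of 0.00. The lower genes were NOTCH1 (-0.67), HES5 ANOSAT021636 (-0.97), HEY1 (-0.74) and the cell cycle gene CCND1 (-0.52). The other HES5 gene model, ANOSAT021637, had more reads (5430 against 1856 over all libraries) and missed the threshold. It stood at -0.51 (edgeR adjusted p = 0.0674, and 0.00280 with the block). HES4 ANOSAT021563 was not past the threshold either (-0.34, edgeR adjusted p = 0.406). The higher genes were HEY2 (1.18) and SOX8 (0.89), which were also higher in temporal than in nasal (1.17 and 0.81), where 2 passed without and 4 with the block. In central against temporal LIN28B was higher (0.66) and NOTCH1 lower (-0.46). SOX9, a progenitor and Müller glia factor of the same family as SOX2, stood at 0.21 in central minus nasal (edgeR adjusted p = 0.138).

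Neurogenic factors that passed the test against nasal were all lower than in nasal, but the genes differed in part between central and temporal. Of 9 neurogenic gene models tested, 4 were lower and 0 higher in central than in nasal, with a median of -1.04: NEUROD1 (-1.26), INSM1 (-1.14), DLL1 (-1.04) and NEUROD4 (-0.92). The summed level of the whole list of 13 was 263 to 304 CPM in central, 298 to 362 CPM in temporal and 464 to 571 CPM in nasal libraries, and no library of central or temporal reached the nasal range. These sums were mostly NEUROD4 and NEUROD1, both already named as lower. NEUROD4 averaged 157 CPM in central, 173 CPM in temporal and 296 CPM in nasal, and NEUROD1 52.2, 83.6 and 125 CPM in the same order. In temporal against nasal NEUROD1, NEUROD4 and BTG2 were lower. INSM1 (edgeR adjusted p = 0.348) and DLL1 (0.224) did not pass there, and BTG2 did not pass in central against nasal (-0.20, edgeR adjusted p = 0.321). In central against temporal NEUROD1 was lower, with 3 of the list past the threshold under the block. ATOH7, which starts the ganglion cell lineage, had 0 reads over the central, 2 over the temporal and 2 over the nasal libraries. NEUROG2, FOXN4 and PTF1A had 59, 42 and 4 reads over all 15 libraries and, like ATOH7, were not tested.

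Of 19 proliferation gene models tested, 3 were lower and 0 higher in central than in nasal, TOP2A (-0.89), MCM6 (-0.87) and PCNA (-0.54), beside 18.4% of all gene models called in either direction. The summed level of 23 gene models was 58.5 to 88.6 CPM in central, 60.9 to 78.0 CPM in temporal and 77.3 to 88.5 CPM in nasal libraries. In temporal against nasal edgeR called 0 of 19 (3 at an unadjusted p under 0.05), against 1 with the block, 2 with DESeq2 and 3 with limma-voom. In central against temporal TOP2A was lower (-1.11).

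**Figure D4:**
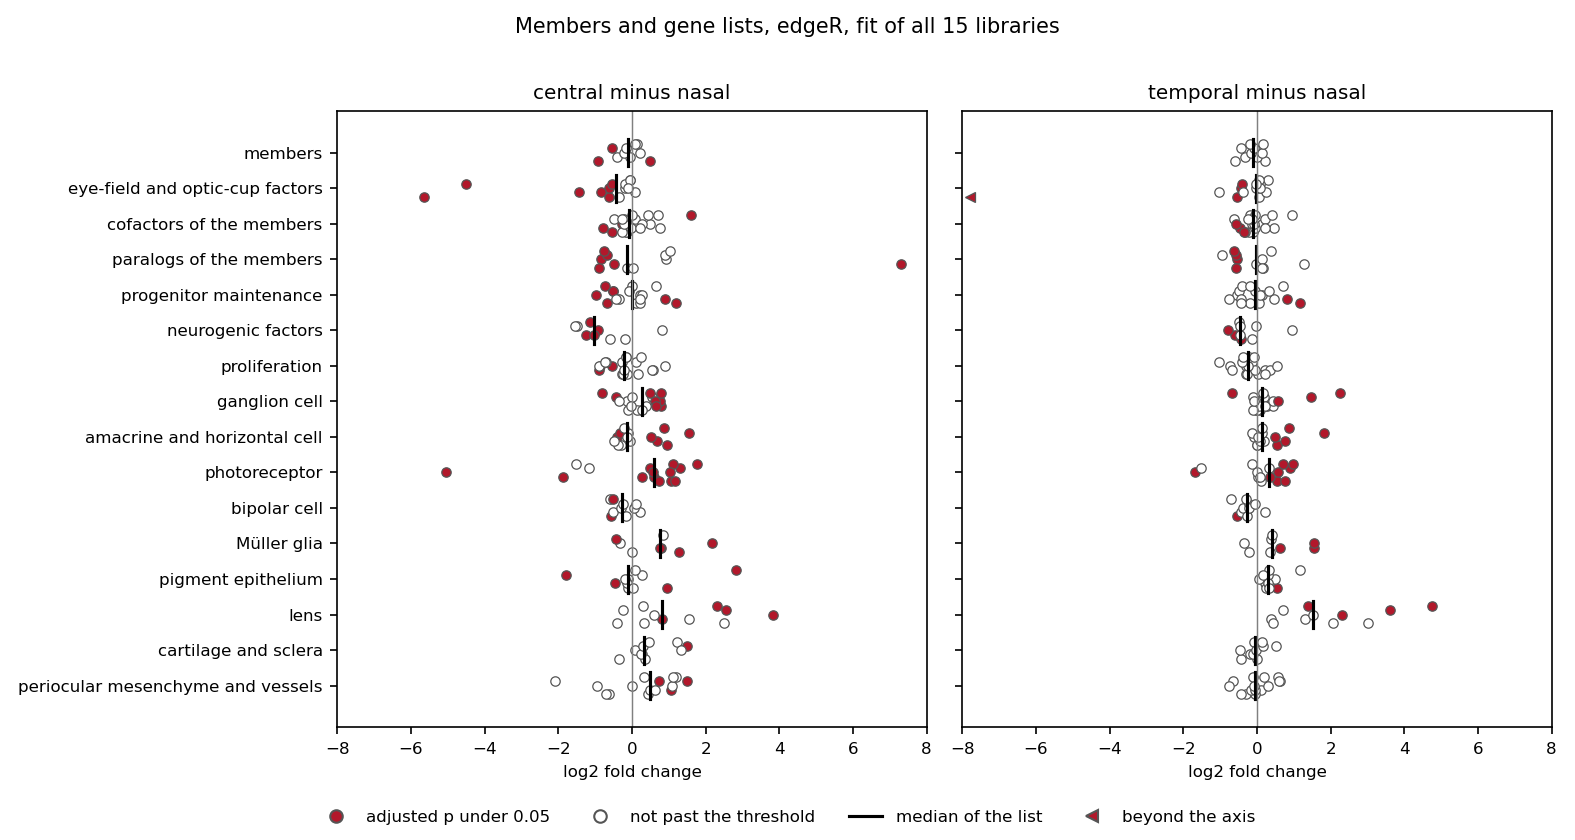
Log2 fold change (horizontal axis) of the members and of the gene models tested on the lists (rows) in central minus nasal and temporal minus nasal, from the edgeR fit of all 15 libraries. The skeletal muscle and blood lists are not drawn. Filled points passed the adjusted threshold, bars mark list medians, and an arrowhead marks a value beyond the axis. In central minus nasal, eye-field, neurogenic and LHX paralog genes lie mostly left of 0 and photoreceptor, Müller glia and lens genes mostly right of it.

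Markers of retinal and other cell types also differed between the regions where SOX2, RAX and SIX3 ANOSAT020998 differed, and their part in those results was not tested. For Müller glia, where SOX2, RAX and LHX2 persist in mouse, 4 of 8 gene models tested were higher in central than in nasal, GFAP (2.17), RLBP1 (1.29), GLUL (0.79) and KCNJ10 (0.75), and SLC1A3 was lower (-0.45). Their summed level was 2692 to 3271 CPM in central, 3053 to 3590 CPM in temporal and 2100 to 2370 CPM in nasal libraries, without overlap between nasal and the others. The APOE gene model at 0 in nasal libraries, ANOSAT015539, had 13 reads over all 15 libraries and was not tested. The other, ANOSAT015548, averaged 15.6 CPM in nasal libraries. It was not past the threshold in central minus nasal (edgeR adjusted p = 0.108, and 0.0236 with the block). In temporal against nasal 3 of the Müller glia markers were higher, and 5 passed with the block. In central against temporal 2 were higher and 2 lower. The sum was carried in large part by SLC1A3, which averaged 1053 CPM in central, 1869 CPM in temporal and 1434 CPM in nasal libraries, while GFAP, RLBP1 and GLUL ANOSAT010639 had means in the order central, temporal and nasal.

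Amacrine and horizontal cell markers had 5 of 14 higher and 2 lower in central than in nasal. GAD2 (0.94) and CALB1 (1.54) were among the higher, and CALB2 ANOSAT018124 (-0.31) and TFAP2C (-0.41) were the lower. The median of the list was -0.12, against -0.03 over all gene models tested. In temporal against nasal 5 of these markers were higher and 0 lower, with a median of 0.13. Their summed level was 1503 to 2033 CPM in central, 1761 to 2086 CPM in temporal and 1218 to 1802 CPM in nasal libraries. Ganglion cell markers had 6 of 18 higher and 2 lower in central than in nasal, POU4F2 at 0.78 and ISL1 at -0.80 among them. Their summed level was 1787 to 2599 CPM in central, 2189 to 3066 CPM in temporal and 1618 to 2151 CPM in nasal libraries. These are cells in which PAX6 persists in mouse. Neither PAX6 gene model passed the threshold in edgeR, while limma-voom called ANOSAT014251 higher in central than in nasal (0.40, adjusted p = 0.0104). A link between these markers and PAX6 was not tested.

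Photoreceptor markers had 11 of 15 higher in central than in nasal, with OPN1LW, a cone opsin, at 1.02 and GNAT2, a cone transducin, at 0.72, while the rod gene NR2E3 (-5.05) was among the 2 that were lower. NR2E3 was near 0 in central, at 0 to 1.32 CPM against 7.84 to 18.5 CPM in nasal libraries. Its value ran from -6.45 to -4.72 with a library left out. In temporal against nasal 7 of the photoreceptor markers were higher and 1 lower. In central against temporal 5 were higher and 2 lower, with 12 past the threshold under the block. Bipolar cell markers had 2 of 10 lower in central than in nasal (5 with the block), VSX1 (-0.56) and PRKCA (-0.50), beside 18.4% of all gene models (27.9% with the block). In temporal against nasal 1 was lower (5 with the block), beside 6.59% of all gene models (13.9% with the block). The summed level of the bipolar markers overlapped, at 1563 to 2003 CPM in central, 1636 to 1862 CPM in temporal and 1805 to 2061 CPM in nasal libraries.

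Of tissues outside the neural retina, pigment epithelium markers had 2 of 11 higher in central than in nasal, RPE65 (0.96) and LRAT (2.83), and 2 lower, BEST1 (-0.47) and TTR (-1.80), with summed levels of 1477 to 2545 CPM in central, 1944 to 2457 CPM in temporal and 1623 to 2044 CPM in nasal libraries. Lens markers had 4 of 11 higher in central than in nasal, with CRYAB ANOSAT017970 at 3.82, and their summed level was 171 to 234 CPM in central, 73.0 to 113 CPM in temporal and 26.9 to 44.6 CPM in nasal libraries. The lens sums did not overlap between any of the regions, but they were mostly that CRYAB gene model (149 CPM in central, 52.1 CPM in temporal and 10.52 CPM in nasal on average). CRYBA2 was lower in central than in temporal (-4.46), and the median of the list was -0.85 in central minus temporal. Mesenchyme and vessel markers had 3 of 15 higher in central than in nasal, FOXC1, PECAM1 and KDR, beside 18.4% of all gene models called in either direction. The sums of these markers ran over 302 to 2401 CPM in central, 455 to 1073 CPM in temporal and 389 to 1069 CPM in nasal libraries. Cartilage and sclera markers had 1 of 10 higher, COL9A2 (3 with the block), at summed levels of 138 to 672 CPM in central, 187 to 324 CPM in temporal and 217 to 342 CPM in nasal libraries, and skeletal muscle 1 of 6 lower, CKM, at a summed level of at most 18.1 CPM in any library. Of 7 blood gene models edgeR, DESeq2 and limma-voom called 0 in each comparison, with 0 at an unadjusted p under 0.05 in edgeR, and their sums overlapped, at 463.7 to 995.5 CPM in central, 409.8 to 1660.02 CPM in temporal and 231 to 1251 CPM in nasal libraries.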

How the data were processed

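RNA-seq libraries (TruSeq Stranded mRNA) of 15 posterior globe samples were used, 5 each of the central, temporal and nasal regions, grouped by GEO's labels. The deposited values are raw read counts for 20235 gene models, and the authors did not normalize them. The submitters' processing notes name HISAT2 2.2.1 and featureCounts. Neither the strand setting nor the build used in counting is given in these sources. The last line of the table is unterminated, so gene models that follow it may be missing. No coordinates or sequences are given, since the RefSeq table (rAnoSag1.mat), used for names and neighbouring genes only, is of an assembly other than the paper's AnoSag2.1.

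Counts were tested in R 4.3.3 with edgeR 4.0.16 (filterByExpr by region with a minimum count of 10, TMM, robust glmQLFit, glmQLFTest) in 1 fit of all 15 libraries, with Benjamini-Hochberg adjustment over 15910 gene models and a threshold of 0.05. SE is the log2 fold change over the square root of F. The fit was run on counts simulated from its own estimates of spread, without pairing by replicate number. That run therefore does not show how the fit handles such pairing. Alternatives were upper-quartile or RLE scaling, a filter of 1 CPM in 10 libraries or none, DESeq2 1.42.0, limma-voom (limma 3.58.1) with quality weights, the 2 regions alone, the replicate number as a block, each library left out and, chosen after seeing the data, the adjacent gene models of SIX6 and of LHX2 summed. Within-library read ratios were compared by exact permutation (Python 3.11.15, NumPy 2.4.6).

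The members and the 17 gene lists were chosen with earlier results of these data known. Gene models named are those of the members, list genes past the threshold in a comparison or defining their list, the 3 most correlated with each member (log2 CPM, prior count 2) and RefSeq neighbours. List genes in the text are given by their list's counts with some of those that passed. Some list genes that passed are not reported here.

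All 15 pairs of libraries with the same replicate number had correlated deviations from their region's means over 0.1 (0.193 to 0.524), while 3 of the 60 other pairs did (-0.339 to 0.256), so the numbers pair the samples by the data, although no source says what they share. Chi-square per degree of freedom ran over 10.3 to 66.9 in the 30 pairs of libraries of a region, so no library repeats the counts of another. Intervals and floors cover the spread between samples or counting error only.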

Additional observations from a re-analysis of the deposited data

Results flagged for a closer look

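Each member gene model was searched for a library far from the other 4 of its region by Dixon's ratio (critical value 0.71, 30 groups of 5 libraries), a search in which chance flags about 1 in 20 groups. SOX2 in nasal replicate 1 stood at 72.9 CPM, where the other nasal libraries had 45.4 to 51.6 CPM. LHX2 ANOSAT020459 in central replicate 4 stood at 10.7 CPM (167 reads), where the other central libraries had 15.4 to 17.1 CPM. These were 2 of the 30 groups.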

How the results depend on the processing

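The calls of SOX2, RAX and SIX3 ANOSAT020998 in central minus nasal held in all 23 alternatives of each. For list genes only those called in the main fit were followed, which makes a reversal unlikely and leaves gained calls uncounted. Of their 3437 results under alternatives, 3165 stayed past the threshold, 272 lost their call and 0 reversed. Lists also gained calls, as bipolar cell markers did in temporal against nasal (1, and 5 with the block). Gene models called were 2925 in central minus nasal (4639 with limma-voom, 4438 with the replicate block), 1048 in temporal minus nasal (2418 with limma-voom, 2216 with the block, 680 to 1485 with a library left out, the lowest without nasal replicate 5) and 1078 in central minus temporal (2022 with the block). Members called in temporal minus nasal were 0, against 1 with DESeq2, 2 with limma-voom, 1 with the 2 regions alone, 2 with the replicate block and 0 to 2 with a library left out. In central minus temporal 1 was called with limma-voom and 1 with the block.

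Calls gained were RAX in temporal minus nasal (-0.45 with DESeq2, -0.43 with limma-voom, -0.45 with 2 regions, -0.44 with the block, -0.48 to -0.39 with a library left out), SIX3 ANOSAT020998 in temporal minus nasal (-0.60 with the block, -0.71 to -0.44 with a library left out), SOX2 in temporal minus nasal (0.33 with limma-voom, 0.15 to 0.36 with a library left out) and in central minus temporal (0.34 with limma-voom, 0.28 with the block), and PAX6 ANOSAT014251 in central minus nasal (0.40 with limma-voom, adjusted p = 0.0104). The replicate block changed no other call of a member.

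Signs turned only where nothing was called. With limma-voom they were 0.011, 0.0053 and 0.0058 for PAX6 ANOSAT000796 in central minus nasal, temporal minus nasal and central minus temporal, 0.026 and 0.073 for LHX2 ANOSAT020458 in central minus nasal and central minus temporal (0.00092 and 0.14 with adjacent gene models summed), and 0.10 for SIX3 ANOSAT002911 and 0.0063 for SIX6 ANOSAT000153 in central minus temporal. With a library left out the ranges were -0.029 to 0.018 for PAX6 ANOSAT000796 in temporal minus nasal, -0.28 to 0.10, -0.19 to 0.0070 and -0.21 to 0.18 for LHX2 ANOSAT020458 in central minus nasal, temporal minus nasal and central minus temporal, and, in central minus temporal, -0.14 to 0.056 for SIX3 ANOSAT002911, -0.18 to 0.10 for SIX6 ANOSAT000153 and -0.12 to 0.011 for SIX6 ANOSAT000154. The cause was not tested. Counts were lowest for SIX6 ANOSAT000153 (595 reads over the central, 630 over the temporal and 805 over the nasal libraries) and LHX2 ANOSAT020458 (742, 779 and 852 in the same order).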
